A study of Mus musculus with 18 samples.

Results

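A set of 10 genes of the system that cuts the extracellular matrix and sheds cell surface proteins was followed across 18 libraries of embryonic mouse lung. They are the tissue inhibitors *Timp1*, *Timp2* and *Timp3*, the matrix metalloproteinases *Mmp2*, *Mmp9*, *Mmp11*, *Mmp14* and *Mmp15*, and the membrane-bound proteinases *Adam10* and *Adam17*. They were taken by gene symbol, 10 of the 23420 genes in each of 3 deposited tables, and all 10 were found in all 3. They were selected on measured values in part, since *Timp3* was chosen by its level, which was lower in every mutant library of the experiment with *Wnt5a* removed by Sox9-Cre. Members are therefore described and not tested in that experiment. The members and the lists of related genes were chosen with earlier results of these data known. P-values and shares in the other experiments are thus not free of that choice.

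Matrix metalloproteinases (Mmps) cut collagens and other matrix proteins, and they hold a zinc ion at their active site. Some are secreted and some, the membrane types, stay at the cell surface. Adam proteinases carry the same kind of zinc site and release the outer parts of membrane proteins, such as Notch receptors and growth factor precursors. Timps block these enzymes by placing their first cysteine on the zinc ion. In the growing lung, the matrix around the buds is thinned at the tips and kept at the clefts, and Mmps and Timps are among the genes known for this remodelling.

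The lungs came from embryos at E12.5dpc (days post coitum) in 2 of the experiments and at E13.5dpc in the other, with 3 control and 3 mutant libraries each. In the *Vangl1/2* experiment (E12.5dpc), knockout lungs were labelled Vangl1-/-; Vangl2-/- and control lungs Vangl1-/-, so both groups carried the *Vangl1* mutation and differed in *Vangl2*. *Vangl1* and *Vangl2* are membrane proteins of the planar cell polarity pathway, and *Wnt5a* is a secreted ligand that signals to it. In the study, the *Vangl1* allele is a gene trap, and *Vangl2* was removed in the whole embryo by Sox2-Cre. In the Dermo1-Cre experiment (E12.5dpc), mutants were Wnt5af/f; Dermo1Cre and controls Wnt5af/+; Dermo1Cre. In the Sox9-Cre experiment (E13.5dpc), mutants were Wnt5af/f; Sox9Cre and controls Wnt5af/+; Sox9Cre. All controls of both *Wnt5a* experiments thus carried the Cre and 1 floxed allele. Dermo1-Cre acts in the mesenchyme, and Sox9-Cre acts in the epithelium and starts only after the first branches have formed. The number of embryos in a library is not given in the sources used here, so p-values measure the spread between libraries, which may be technical in part.

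Values are normalized counts, that is, reads on a gene divided by a size factor of the library. Reads on genes numbered from 15945393 to 19814346 per library. The labelled tissue was checked by 12 markers of lung epithelium and 10 of lung mesenchyme, which all reached the minimum level for testing in all 3 experiments. *Vangl2* lay between 79.8 and 89.6 normalized counts in the *Vangl1/2* knockouts and between 277 and 406 in their controls (log2 fold change −1.96, standard error 0.17, adjusted p = 0.0318 by limma). *Vangl1* lay between 113 and 219 in those controls and between 239 and 274 in the knockouts, and at 409 to 508 in all 12 libraries of the other experiments. *Wnt5a* ranged from 430 to 489 in Dermo1-Cre controls and from 230 to 436 in the mutants, and from 426 to 473 and 362 to 448 in the Sox9-Cre groups. Neither difference passed the adjusted threshold (adjusted p = 0.406 and 0.9999 by limma), so the *Wnt5a* message in whole lung does not by itself check the labels of these libraries. In the *Vangl1/2* experiment, control replicate 2 lay at 16.97 on principal component 1, which held 51.7% of the variance, among the knockouts (15.1 to 21.5) and away from the other controls (−30.1 and −44.7). Results of that experiment are therefore given with and without it.

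The parts of the messages that encode the working sites are shown first, because they tell the 3 families apart. For each Timp, the 36 bases start at the codon of the first cysteine of its first Cys-X-Cys pattern, the residues that reach into the active site of the enzyme. The 2 cysteine codons are in capitals.
Timp1: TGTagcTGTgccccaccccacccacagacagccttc
Timp2: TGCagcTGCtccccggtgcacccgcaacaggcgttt
Timp3: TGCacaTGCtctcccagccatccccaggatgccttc

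Each pair of Timps shared 22 of the 36 bases. In GRCm38 with GENCODE M21 transcripts, the *Timp1* site lies on the plus strand of chromosome X, from 20871111 to 20871146 in exon 2 of 6. The *Timp2* site lies on the minus strand of chromosome 11, from 118354977 to 118355012 in exon 1 of 5. The *Timp3* site lies on the plus strand of chromosome 10, from 86300923 to 86300958 in exon 1 of 5. All 3 are coding sequence.

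For each proteinase, the 33 bases encode the zinc-binding site, with the codons of its 3 histidines in capitals. The pattern occurred once in each protein.
Mmp2: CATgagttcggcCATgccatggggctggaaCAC
Mmp9: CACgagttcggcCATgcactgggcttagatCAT
Mmp11: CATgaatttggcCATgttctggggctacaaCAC
Mmp14: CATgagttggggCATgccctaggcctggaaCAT
Mmp15: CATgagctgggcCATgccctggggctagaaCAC
Adam10: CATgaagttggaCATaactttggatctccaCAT
Adam17: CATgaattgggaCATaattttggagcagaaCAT

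*Mmp2* and *Mmp15* were the most alike, with 29 of 33 bases equal, and *Mmp9* and *Adam10* the least, with 17. *Adam10* and *Adam17* shared 26 of 33 bases, and each shared between 17 and 22 with the Mmps. The *Mmp14* site lies at 54437627 to 54437659 on the plus strand of chromosome 14, in exon 5 of 10. The *Mmp15* site lies at 95368585 to 95368617 on the plus strand of chromosome 8, also in exon 5 of 10. The *Mmp2* site is in exon 8 of 13 (chromosome 8, plus strand, 92839279 to 92839311), as is that of *Mmp9* (chromosome 2, plus strand, 164951133 to 164951165). The *Mmp11* site is in exon 5 of 9 (chromosome 10, minus strand, 75926931 to 75926963). The *Adam17* site is in exon 11 of 19 (chromosome 12, minus strand, 21336732 to 21336764). The *Adam10* site spans the junction of exons 9 and 10 of 16 (chromosome 9, plus strand, 70754296 to 70761585). The libraries measured whole messages, and nothing in the values depends on these sites.

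Level was compared between genes per kb of the longest protein-coding transcript. In the Dermo1-Cre controls, *Mmp2*, the secreted gelatinase of the mesenchyme, stood highest at 2122 ± 118 normalized counts per kb (SD, n = 3). *Mmp14*, the membrane-type proteinase that activates *Mmp2*, followed at 1041 ± 43.7, then *Adam10* at 1019 ± 13.3 and *Timp2* at 844 ± 58.8. *Mmp14* and *Adam10* did not differ beyond their spread. *Timp3* (391 ± 83.1), *Mmp15* (326 ± 2.88), *Mmp11* (323 ± 24.8) and *Adam17* (312 ± 12.1) formed a group whose neighbours lay within their spread, and *Timp1* was lower at 246 ± 27.7. *Mmp9*, the gelatinase typical of blood-borne and inflammatory cells, had 3.45 ± 2.71. *Mmp2* was first and *Mmp9* last in the controls of all 3 experiments, while the order of the other members changed between them. The tables were normalized separately, so levels set across them are side by side and untested.

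**Figure D1:**
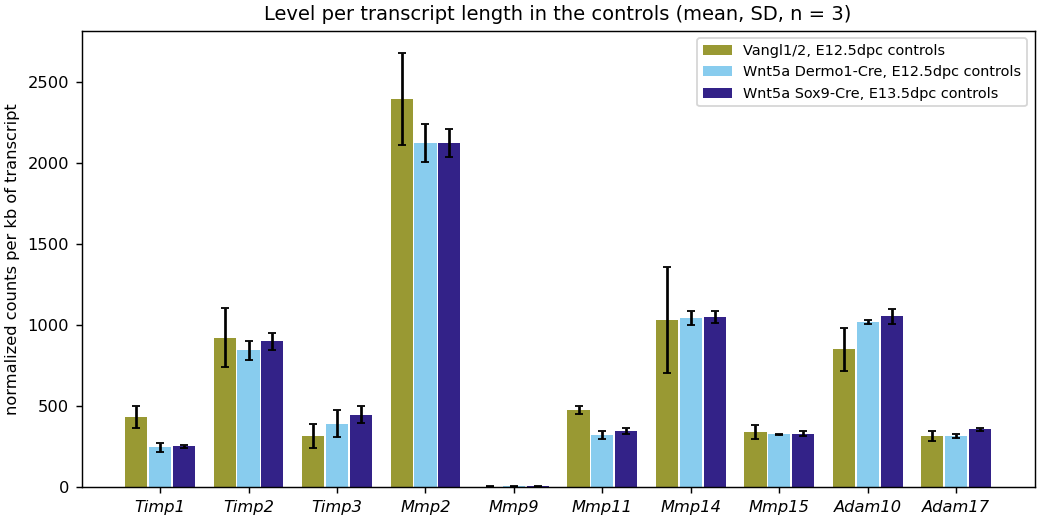
Bars give the mean level of each gene in the 3 control libraries of each experiment, in normalized counts per kb of the longest protein-coding transcript, and error bars give the SD. *Mmp2* stood between 2122 and 2395 per kb, *Mmp14*, *Adam10* and *Timp2* between 844 and 1054, and *Mmp9* near 0.

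*Mmp9* did not reach 10 normalized counts in 3 libraries of any experiment and was not tested, which leaves 9 of the 10 members. It ranged from 2.01 to 20.8 normalized counts over the 18 libraries, with a median of 5.95. Both groups overlapped in all 3 experiments.

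**Figure D2:**
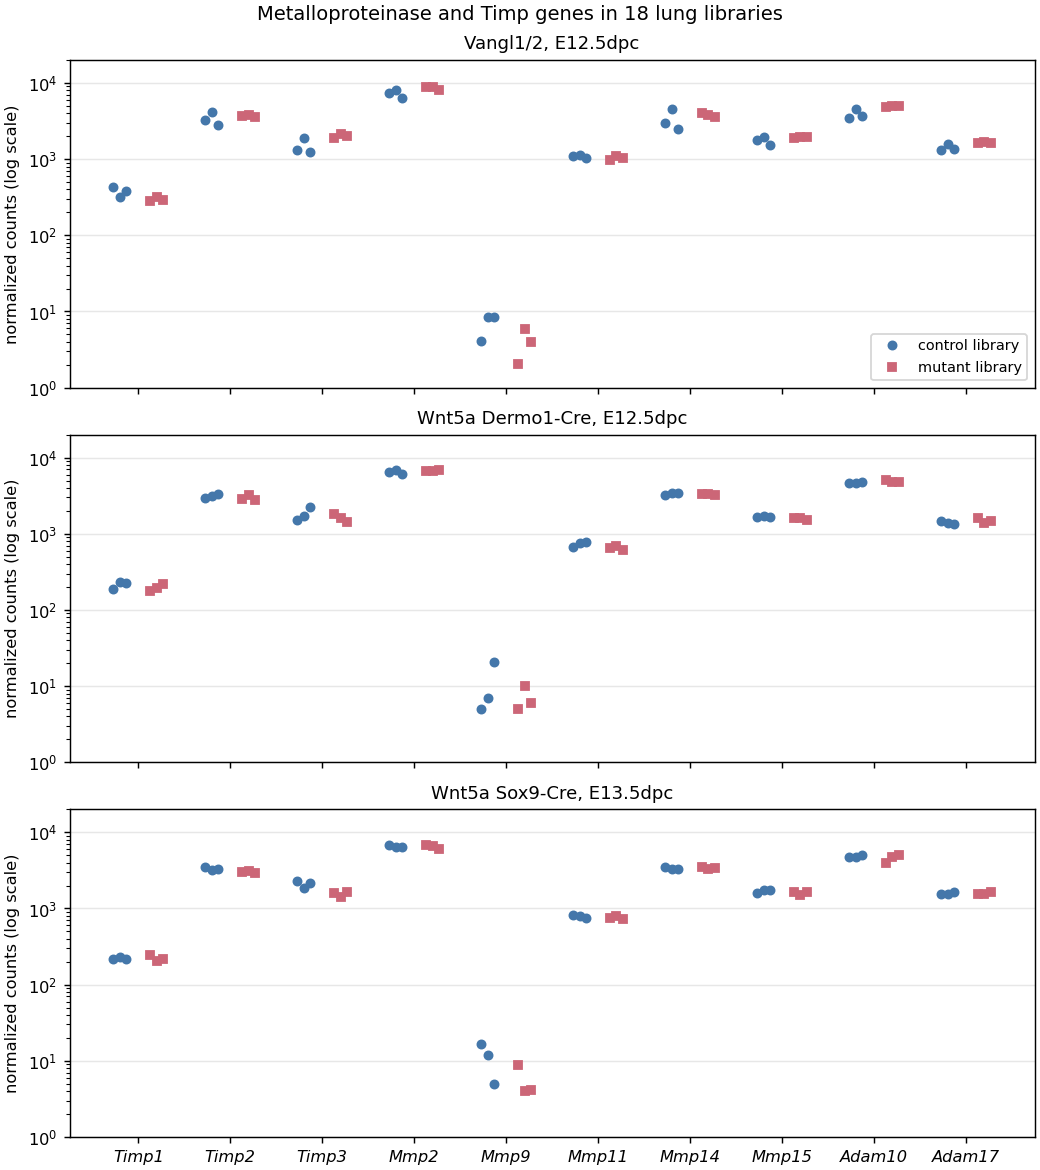
Normalized counts of the 10 genes in each of the 18 libraries, on a log scale, with 1 panel for each experiment (circles for control and squares for mutant libraries, the knockouts in the *Vangl1/2* panel). The other 9 genes kept to a band from 178 to 8917 normalized counts, *Mmp9* lay below 21 in every library, and the *Timp3* squares lie below the circles in the Sox9-Cre panel.

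*Timp3* is the inhibitor that binds to the matrix and blocks *Adam17* as well as Mmps. In the Sox9-Cre experiment it had 2321, 1836 and 2146 normalized counts in the controls and 1573, 1412 and 1666 in the mutants. The groups did not overlap, which is the pattern it was chosen for. The means were 2101 ± 246 and 1550 ± 128 (SD, n = 3 each), so the mutants had 73.8% of the control mean, with a log2 difference of −0.43 (standard error 0.095). The lowest control and the highest mutant were 170 normalized counts apart.

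Leaving out 1 library at a time moved this difference between −0.36 (without control replicate 1) and −0.53 (without control replicate 2). Its sign could not change, because *Timp3* was chosen for lying lower in every mutant library, so this range is no support. *Timp2*, a secreted inhibitor that also helps *Mmp14* to activate *Mmp2*, had 3544, 3157 and 3317 normalized counts in these controls and 3042, 3128 and 2968 in the mutants. The groups were again separate, but by only 29.0 normalized counts, and the mutant mean was 91.2% of that of the controls. In the other members the groups overlapped. Apart from *Timp3*, which was chosen for this pattern, 1 of the 8 members tested was thus lower in every mutant library, beside 4.36% of the 14293 genes tested. None was higher in every mutant library, beside 4.42%. Nothing is read from these counts. No gene passed the adjusted threshold in this experiment by limma, where 3.9% had an unadjusted p under 0.05.

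The other members stayed close to their controls in the Sox9-Cre lungs. *Timp1* had 214 to 230 normalized counts in controls and 204 to 243 in mutants. *Mmp14* (log2 difference 0.0015) and *Adam17* (−0.0043) differed by less than 1 standard error, as did *Timp1* (0.0034), *Mmp2* (−0.02) and *Mmp11* (−0.06). The log2 differences of *Mmp15* and *Adam10* were −0.08 (standard error 0.060) and −0.09 (standard error 0.080). *Adam10* was lowest in mutant replicate 1, at 4010 normalized counts, against 4682 and 4973 in the other mutants. The median log2 difference over the 9 members was −0.057, beside 0.0013 over all genes tested. The 9 include *Timp3*, chosen for its lower values here, so nothing is read from this median.

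Some cell type markers differed between the Sox9-Cre groups, though of the sums given here only that of endothelium separated them. The part of these markers in the *Timp3* difference was not tested. The 12 heart muscle markers summed to 5784, 9142 and 20089 normalized counts in the controls and 6470, 3086 and 1086 in the mutants, with 9 of 12 lower at an unadjusted p under 0.05. The 7 mesothelium markers summed to 5146 to 6005 in controls and 4248 to 5175 in mutants, with 4 of 7 lower. The 10 endothelium markers summed to 15548 to 15830 in controls and 15026 to 15357 in mutants, which do not overlap, with 1 of 10 lower. The 8 cartilage markers summed to 4522 to 4769 and 4664 to 5476, with 3 higher. The 10 mesenchyme markers summed to 102330, 86217 and 89397 in controls and 88361, 87316 and 79931 in mutants, with 1 lower. Of the 18 libraries, those highest in heart muscle markers were Dermo1-Cre control replicate 3 (22302) and Sox9-Cre control replicate 3. Without the latter the log2 difference of *Timp3* was −0.42. Its sign was fixed by the choice of *Timp3*, so this value does not test the part of heart muscle. In bulk lung, fewer cells of a type and less RNA per cell cannot be told apart. *Timp3* also overlaps *Syn3* on the opposite strand, with 1733 shared exonic bases, and *Syn3* had 66.2 to 171 normalized counts per library. *Mmp11* shares 155 exonic bases with *Chchd10*, and *Adam17* shares 311 with *Iah1*. The strand setting of the counting is not given in the sources used here, so reads in these stretches cannot be told apart.

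**Figure D3:**
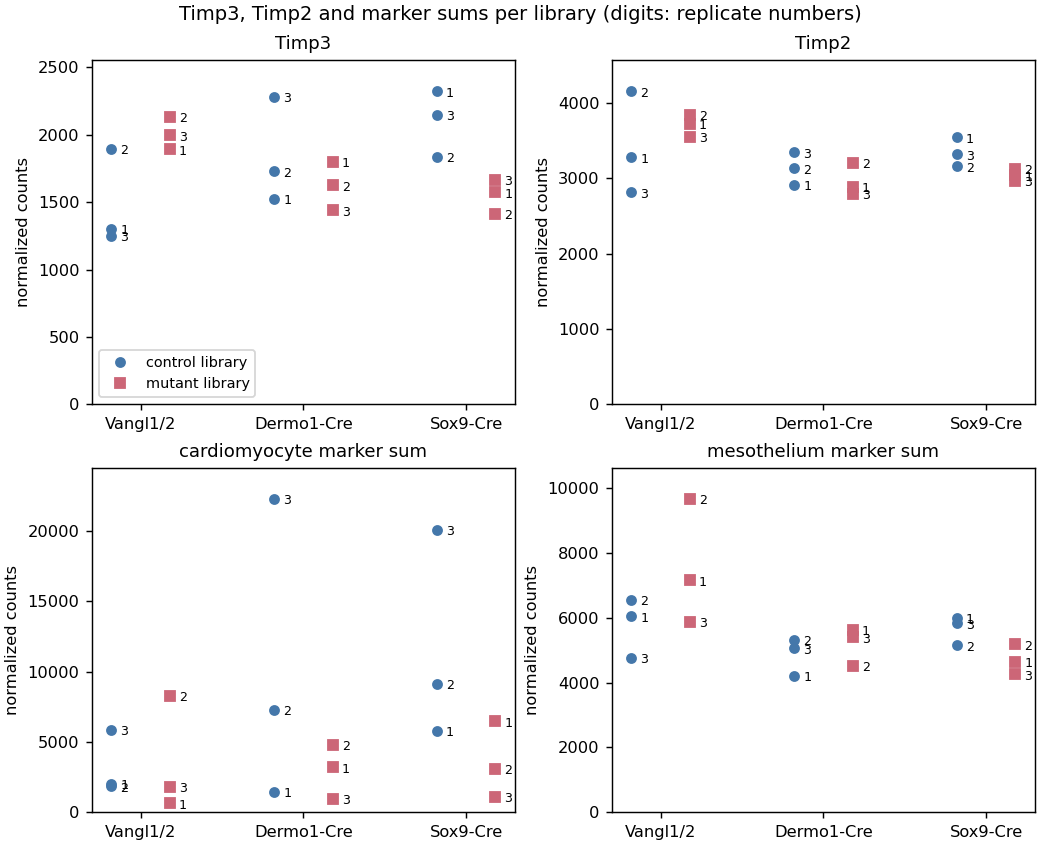
Normalized counts of *Timp3* and *Timp2* and the summed normalized counts of 12 heart muscle and 7 mesothelium markers in each library, by experiment, with replicate numbers beside the points (circles control, squares mutant). In the Sox9-Cre column the 3 mutants lie below the 3 controls for *Timp3* (1412 to 1666 against 1836 to 2321), and the heart muscle sum spreads from 1086 to 20089 within that experiment.

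When *Wnt5a* was targeted in the mesenchyme, none of the 9 members passed the adjusted threshold. *Timp3* had 1525, 1728 and 2283 normalized counts in the Dermo1-Cre controls and 1801, 1626 and 1438 in the mutants. The groups overlapped, and the highest value belonged to control replicate 3. By limma the mutants differed by −0.17 on the log2 scale (standard error 0.13, adjusted p = 0.684). Without control replicate 3 it was −0.0079 (standard error 0.092). With any other library left out it lay between −0.30 (without control replicate 1) and −0.088 (without mutant replicate 3). Control replicate 3 also held the highest sum of heart muscle markers (22302, against 1426 and 7261 in the other controls and 952 to 4793 in the mutants). The part of this in the *Timp3* value was not tested. Whether *Timp3* responded differently in the Dermo1-Cre and Sox9-Cre lungs was not tested.

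The other inhibitors were also close between Dermo1-Cre groups. *Timp2* had 2910, 3133 and 3346 normalized counts in the controls and 2884, 3207 and 2792 in the mutants. *Timp1* had 189, 236 and 226 in the controls and 178, 196 and 219 in the mutants. For both, the ranges overlapped, with log2 fold changes of −0.08 (standard error 0.065) and −0.13 (standard error 0.12).

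Of the 4 Mmps tested in the Dermo1-Cre experiment, *Mmp11* and *Mmp15* were the lowest relative to the controls. *Mmp11*, a secreted proteinase of stromal cells that furin activates inside the cell, had 674, 756 and 784 normalized counts in the controls and 656, 699 and 620 in the mutants. Mutant replicate 2 lay within the range of the controls, and limma gave *Mmp11* a log2 fold change of −0.16 (standard error 0.072, adjusted p = 0.490). *Mmp15* had 1667, 1693 and 1668 in the controls and 1590, 1616 and 1499 in the mutants. The *Mmp15* groups did not overlap, with a log2 fold change of −0.097 (standard error 0.044, adjusted p = 0.506 by limma). *Mmp2* and *Mmp14* had log2 fold changes of 0.06 (standard error 0.047) and −0.02 (standard error 0.044), with overlapping groups.

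The Adam genes had slightly higher values in the Dermo1-Cre mutants. *Adam10*, the main sheddase of Notch receptors, had 4612, 4712 and 4722 normalized counts in the controls and 5104, 4735 and 4845 in the mutants. The groups were separate by 12.3 normalized counts, with a log2 fold change of 0.06 (standard error 0.041, adjusted p = 0.620 by limma). *Adam17*, which releases tumour necrosis factor and ligands of the epidermal growth factor receptor, had 1452, 1383 and 1346 against 1602, 1401 and 1491. Its ranges overlapped (log2 fold change 0.10, standard error 0.057, adjusted p = 0.569 by limma). Fold changes rose weakly with transcript length in this experiment, as given below. With that trend removed, *Adam10* had 0.049 and *Adam17* 0.090.

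In counts, 0 of 9 members passed the adjusted threshold in the Dermo1-Cre experiment, beside 0.014% of the 14277 genes tested. At an unadjusted p under 0.05 there was 1, *Mmp11*, beside 10.2% of all genes. Groups did not overlap for 2 of 9 members, beside 15.6%. The median log2 fold change was −0.080 over members and 0.00071 over all genes. In all, 6 of 6 smooth muscle markers and 6 of 12 epithelial markers were lower in these mutants at an unadjusted p under 0.05, and 7 of 8 neural markers were higher. The smooth muscle sums ranged from 10992 to 15333 in controls and from 7338 to 11787 in mutants, the epithelial sums from 22520 to 23708 and from 21335 to 21696, and the neural sums from 641 to 988 and from 1114 to 2133. The mesenchyme sums ranged from 83010 to 94787 in controls and from 75777 to 82602 in mutants, which do not overlap, with 3 of 10 markers lower. Their part in the values of the members was not tested.

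In the *Vangl1/2* experiment most members were higher in the knockouts than in 2 of the 3 controls, and no member passed the adjusted threshold over all 6 libraries. *Timp3* had 1303, 1895 and 1251 normalized counts in the controls and 1893, 2131 and 1994 in the knockouts. Control replicate 2 matched the lowest knockout, and the other controls were far below. By limma the knockouts differed by 0.46 on the log2 scale (standard error 0.16, adjusted p = 0.233), and their mean was 35.3% higher.

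*Adam10* and *Adam17* followed the same layout. *Adam10* had 3443, 4599 and 3654 normalized counts in the controls and 4789, 4940 and 5050 in the knockouts, and *Adam17* had 1305, 1559 and 1349 against 1650, 1677 and 1653. In both genes every knockout exceeded every control, and control replicate 2 was the highest control. The log2 fold changes were 0.35 (standard error 0.12) for *Adam10* and 0.25 (standard error 0.098) for *Adam17*, with adjusted p = 0.233 and 0.235 by limma.

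*Timp1*, a soluble inhibitor that acts on *Adam10* but poorly on the membrane-type Mmps, lay on the opposite side. It had 437, 317 and 383 normalized counts in the controls and 286, 316 and 290 in the knockouts. Every knockout was below every control, by 0.54 normalized counts at the closest. By limma, *Timp1* differed by −0.34 on the log2 scale (standard error 0.14, adjusted p = 0.240).

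The remaining members overlapped between the *Vangl1/2* groups. *Mmp14* had 3016, 4515 and 2475 normalized counts in the controls and 4072, 3812 and 3559 in the knockouts. *Timp2* had 3279, 4154 and 2816 against 3724, 3840 and 3547, and *Mmp2* had 7493, 8179 and 6439 against 8917, 8757 and 8107. *Mmp15* had 1767, 1971 and 1530 in the controls and 1912, 1964 and 1952 in the knockouts, and *Mmp11* had 1084, 1142 and 1036 against 983, 1094 and 1031. In *Mmp14*, *Timp2*, *Mmp15* and *Mmp11*, control replicate 2 was the highest of all 6 libraries. The log2 fold changes were 0.24 for *Mmp14* (standard error 0.20), 0.13 for *Timp2* (0.14), 0.23 for *Mmp2* (0.11), 0.15 for *Mmp15* (0.11) and −0.07 for *Mmp11* (0.093).

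Thus 0 of 9 members passed the adjusted threshold in the *Vangl1/2* experiment, beside 0.00699% of the 14303 genes tested. At an unadjusted p under 0.05, 3 of 9 were higher and 1 lower, beside 12% and 8.56% of all genes. Groups did not overlap for 3 of 9 members, beside 22.3% of all genes. The median log2 fold change was 0.23 over the members and −0.0093 over all genes.

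Without control replicate 2, 7 of 9 members rose and 1 fell past the adjusted threshold, beside 21.5% and 21.7% of all genes tested. *Timp3* then had a log2 fold change of 0.65 (standard error 0.075, adjusted p = 1.57e-04 by limma), *Mmp14* 0.48, *Adam10* 0.47, *Adam17* 0.32, *Mmp2* 0.31, *Timp2* 0.28, *Mmp15* 0.24 and *Timp1* −0.46. *Mmp11*, at −0.03, did not pass. Leaving out knockout replicate 1 kept 2 members, *Timp3* and *Adam10*, at an unadjusted p under 0.05, beside 10.1% of all genes. Leaving out control replicate 1 or 3, or knockout replicate 2 or 3, left 0, beside 5.36%, 7.38%, 10.7% and 7.74% of all genes. The library was set aside because of its expression values, so the larger differences without it are no independent support.

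Fold changes in the *Vangl1/2* experiment followed the length of the transcript. Over 14189 genes with a length, the Spearman correlation between the log2 fold change and the transcript length was 0.717, as a description across genes that share the same 6 libraries. Genes with transcripts up to 2.03 kb had a median log2 fold change of −0.28, and those from 4.70 kb up 0.32. The trend was weaker in the Dermo1-Cre experiment (Spearman correlation 0.253, medians −0.041 up to 2.04 kb and 0.048 from 4.72 kb). In the Sox9-Cre experiment the correlation was −0.032. With the trend removed, the Dermo1-Cre differences of *Mmp11* (−0.14), *Timp1* (−0.080), *Adam10* (0.049), *Adam17* (0.090) and *Mmp14* (−0.014) were smaller. Those of *Timp3* (−0.19), *Mmp15* (−0.12) and *Mmp2* (0.073) were larger, and *Timp2* stayed at −0.080. *Timp1* has the shortest transcript of the members, 883 bases, and *Mmp15* (5135), *Timp3* (4722), *Adam10* (4593) and *Adam17* (4469) the longest.

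**Figure D4:**
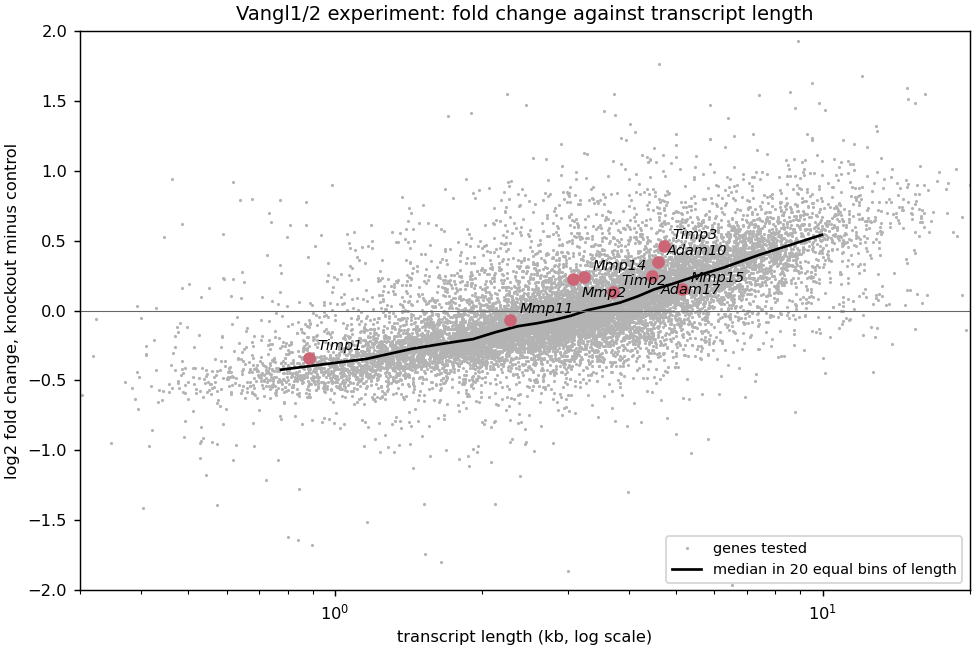
Each grey point is a gene of the *Vangl1/2* experiment, with the length of its transcript in kb on a log axis and its log2 fold change, knockout minus control (76 of 14189 genes lie outside the axes). The black line joins the medians of 20 bins of equal size, and it rises from below 0 for short transcripts to above 0 for long ones. *Timp1* lies near the line at the short end, while *Timp3*, *Adam10*, *Mmp2* and *Mmp14* lie above it.

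When the trend on length was removed from each *Vangl1/2* library, *Timp3* had a log2 fold change of 0.30 (standard error 0.11), *Mmp2* 0.26 (0.10) and *Adam10* 0.20 (0.080). These 3 were the members with an unadjusted p under 0.05, all higher, beside 3.79% of all genes, and none passed the adjusted threshold (adjusted p = 0.579 by limma for *Timp3* and *Adam10*, and 0.580 for *Mmp2*). *Timp1* changed sign to 0.058 (standard error 0.11), as did *Mmp11* (0.062) and *Mmp15* (−0.050). *Adam17* had 0.11 (standard error 0.065). With the trend removed and control replicate 2 left out together, 4 of 9 members rose past the adjusted threshold, beside 4.44% of all genes. These were *Mmp14* (0.50, adjusted p = 0.00951 by limma), *Timp3* (0.43, adjusted p = 0.00639), *Mmp2* (0.35, adjusted p = 0.0204) and *Adam10* (0.27, adjusted p = 0.0211). That combination was chosen after seeing the data.

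**Figure D5:**
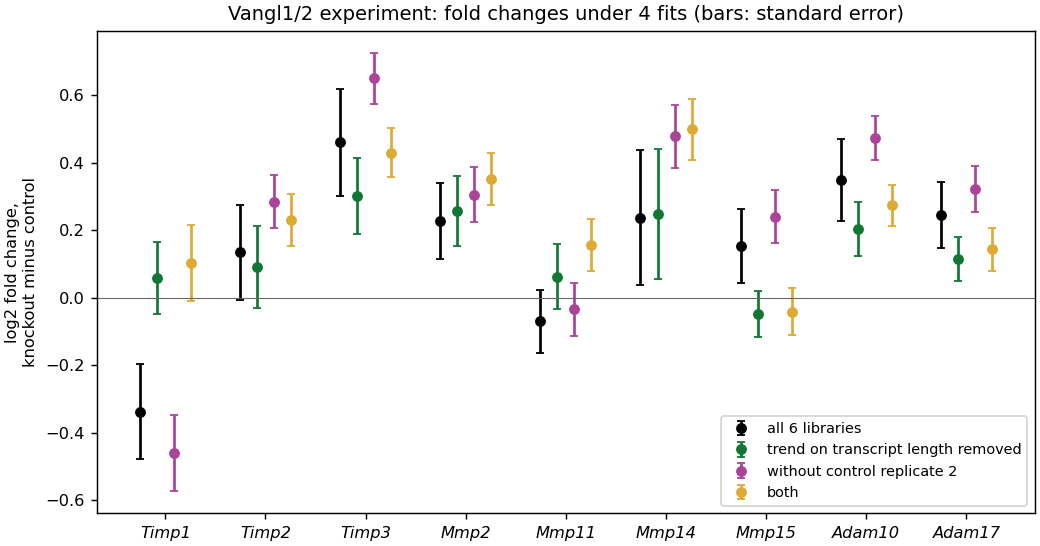
Log2 fold changes, knockout minus control, of the 9 members tested in the *Vangl1/2* experiment, with standard errors, for all 6 libraries, with the trend on transcript length removed, without control replicate 2, and with both. *Timp3*, *Mmp2*, *Mmp14* and *Adam10* stay above 0 in all 4 fits, and *Timp1* lies at −0.34 and −0.46 without and at 0.058 and 0.10 with the trend removed.

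Marker genes also differed among the *Vangl1/2* libraries. The 10 mesenchyme markers summed to 61556, 100901 and 48205 normalized counts in the controls and 76563, 96027 and 85929 in the knockouts. By an unadjusted p under 0.05, 3 of them rose and 1 fell, so they did not all move the same way. Control replicate 2 had the highest mesenchyme sum, and it was also highest for *Mmp14*, *Timp2*, *Mmp15* and *Mmp11*. The 7 mesothelium markers summed to 4766 to 6561 in controls and 5872 to 9673 in knockouts, with 3 of them higher at an unadjusted p under 0.05. Smooth muscle markers summed to 8279 to 12230 and 6459 to 9615, with 4 of 6 lower, and macrophage markers to 2649 to 2840 and 2300 to 3009, with 3 lower. The part of these markers in the values of the members was not tested.

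Within experiments, some members varied together from library to library. Pearson's r was computed over the 18 libraries on log2 values centred on the mean of each table, as a description, since these libraries share their groups and the length trend. *Adam10* and *Adam17* had r = 0.889 (0.99, 0.80 and 0.78 within the *Vangl1/2*, Dermo1-Cre and Sox9-Cre tables). *Timp2* and *Mmp14*, which act together on *Mmp2* at the cell surface, had r = 0.855, and 0.98, 0.77 and 0.34 within tables. *Mmp2* itself had r = 0.630 with *Timp2* (0.87, −0.59 and 0.60 within tables) and 0.780 with *Mmp14* (0.88, −0.29 and 0.65). *Timp2* and *Timp3* had r = 0.796, with 0.84, 0.74 and 0.83 within tables. *Timp1* ran opposite to the Adam genes, with r = −0.802 for *Adam10* (−0.96, −0.42 and −0.68 within tables) and −0.840 for *Adam17* (−0.95, −0.70 and −0.28).

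Of 13979 genes tested in all 3 experiments, the 5 whose pattern was most like that of *Timp3* were *Sptb* (r = 0.889), *Slc2a13* (0.887), *Bche* (0.885), *Mmp16* (0.883) and *Dsp* (0.878). *Mmp16* is a further membrane-type Mmp. It averaged 183 normalized counts in *Vangl1/2* controls and 277 in knockouts, 233 and 224 in the Dermo1-Cre groups, and 278 and 220 in the Sox9-Cre groups. *Mmp16* was picked by its likeness to *Timp3* in these same libraries, so these means are no independent support. Among the members, *Timp2* stood 85th in that order, *Mmp15* 376th, *Adam10* 502nd and *Timp1* 10372nd.

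The other genes of the system were read from lists of 87 non-member genes, which cover further Mmps, *Timp4* and *Reck*, other Adam and Adamts genes, procollagen-cleaving proteinases, partners of the sheddases, proprotein convertases, the plasminogen system and sheddase substrates. In the *Vangl1/2* experiment, 67 were tested and 0 passed the adjusted threshold, while 10 were higher and 2 lower at an unadjusted p under 0.05, beside 12% and 8.56% of all genes. Without control replicate 2, 31 of the 67 passed the adjusted threshold in either direction, beside 43.2% of all genes (21.5% higher and 21.7% lower). With any of the other libraries left out 0 passed. At an unadjusted p under 0.05, 2 to 6 were then higher (2 without control replicate 1), beside 3.73% to 6.42% of all genes. The higher genes included 5 of 17 Adamts genes, secreted relatives of the Adams, of which *Adamts17* and *Adamts3* kept an unadjusted p under 0.05 with the length trend removed. Where a list had genes with an unadjusted p under 0.05, the one with the smallest p is named. These were *Adam9* (log2 fold change 0.39), *Adam22* (0.78), *Adamts17* (0.89), *Pcsk6* (0.28), *Notch2* (0.89), *Tspan33* (−0.58) and *Serpine2* (−0.27). With the length trend removed, the values in the same order were smaller, at 0.31, 0.29, 0.57, 0.16, 0.34, −0.41 and −0.13. Only *Adam9*, *Adamts17* and *Notch2* among them then kept an unadjusted p under 0.05. *Notch2*, a receptor that *Adam10* cuts, had 1724, 3292 and 1310 normalized counts in the controls and 3404, 3626 and 3824 in the knockouts, so control replicate 2 again stood near the knockouts. With the length trend removed, 4 of the 67 were higher and 1 lower, beside 3.79% and 4.58% of all genes.

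In the Dermo1-Cre experiment, 69 of the 87 genes were tested, of which 5 were higher and 5 lower by an unadjusted p under 0.05 (beside 5.42% and 4.76% of all genes), and 0 passed the adjusted threshold. With 1 library left out, 1 to 6 were higher (1 without control replicate 2 or mutant replicate 1), beside 3.26% to 7.16% of all genes. Between 3 and 5 were lower (3 without the same libraries), beside 2.44% to 6.14%. *Pcolce*, an enhancer of procollagen cleavage, had 1439, 1425 and 1417 normalized counts in the controls and 946, 1168 and 1129 in the mutants. These groups were well apart, with a log2 fold change of −0.41 (standard error 0.074, adjusted p = 0.162 by limma). Without mutant replicate 1 it passed, at −0.31 (adjusted p = 0.0357 by limma), and it was the 1 gene of these lists to pass in that experiment with a library left out. *Furin*, a convertase that activates *Mmp14*, *Mmp11* and the Adams, had −0.17 (standard error 0.059), and *Rhbdf2*, a partner that carries *Adam17* to the surface, had −0.31 (standard error 0.097). *Adam12* had 0.15, *Adamts12* 0.23 and *Notch2* 0.14, and the groups overlapped for *Adam12* and *Notch2*. With the length trend removed, *Adam12* had 0.093, *Adamts12* 0.16 and *Notch2* 0.045. In that fit *Pcolce* had −0.37, *Rhbdf2* −0.31 and *Furin* −0.18. *Mmp24* had 6.01, 4.01 and 12.9 normalized counts in the controls and 10.1, 33.7 and 26.96 in the mutants, with overlapping groups and a log2 fold change of 1.49 (standard error 0.53).

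In the Sox9-Cre experiment, 69 were tested and 0 passed the adjusted threshold. By an unadjusted p under 0.05, 5 were lower (beside 2.81% of all genes) and 0 higher (beside 1.08%). The 5 became 0 without control replicate 1 (beside 1.78% of all genes), 3 without control replicate 3 (1.55%) and 7 without mutant replicate 1 (5.97%). *Reck*, a membrane-anchored inhibitor of Mmps, had 1380, 1147 and 1257 normalized counts in the controls and 1122, 1123 and 1113 in the mutants, a log2 difference of −0.17. *Adamts18* had 429, 350 and 376 against 315, 306 and 326, a log2 difference of −0.28. *Mmp23* (−0.34) and *Adam22* (−0.28) were named by the same rule. For these 4 genes the groups did not overlap.

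The promoters of the members were searched in the RefSeq windows of GRCm38.p6, over the 250 bases before the start, for 3 short motifs on both strands. Of the 10 members, 8 had a window (*Mmp2* and *Mmp9* not matched). All 8 held at least 1 GC box (GGGCGG), which 32.7% of 32851 promoters hold, with 3 in *Adam10*, 2 in *Mmp11* and *Mmp14*, and 1 in each of the others. None held TATAAA (12.4% of promoters) or TGANTCA (6.75%), the letters bound by AP-1 factors. A match is only a description of these letters.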

How the data were processed

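Total RNA of embryonic mouse lung was measured in bulk in 18 libraries, in 6 groups of 3. In the submitters' processing notes, reads were trimmed (Trim Galore), aligned to mm10 (HISAT2), counted per gene (featureCounts) and normalized (DESeq2), with no versions given. The authors deposited 1 table for each experiment with a signal per library, which is the gene count divided by a size factor. The size factors lie between 0.952 and 1.07. Every value in all 18 libraries is a whole multiple of 1 step (tolerance 0.01 reads, largest deviation 4.8e-05). The columns of the authors' own comparison (log2 fold changes and p-values, with a mean over libraries) were not used. In each table, 27 gene names read as dates.

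A pseudocount of 1 was added, log2 was taken, and limma was run on genes that reached 10 normalized counts in 3 or more of the 6 libraries (limma version 3.58.1, R 4.3.3, mean-variance trend). Fold changes are on this scale and understate low genes. P-values were adjusted over all genes tested by the Benjamini-Hochberg method at 0.05. For a single gene, 3 libraries against 3 allow an exact two-sided permutation p of 0.1 at the least. The steps were tested on simulated data. The transcript length is that of the longest protein-coding transcript in GENCODE M21 (98.4% of names matched), and its trend was removed by loess (span 0.3). Members and lists were chosen with earlier results of these data known. From each list of related genes, the text names the gene with the smallest unadjusted p under 0.05 in each experiment, beside the targeted genes and the 5 genes most like *Timp3*. Depth limits *Mmp9*, whose values rest on few reads per library. Alternatives changed the scaling, the filter, the pseudocount, the length trend, a block for the replicate number and each library left out. Figures were drawn with matplotlib (version 3.10.9) in Python (version 3.11.15).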

Additional observations from a re-analysis of the deposited data

How the results depend on the processing

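Other settings were tried for the scaling (upper-quartile, chosen after seeing the data), the filter, the pseudocount, the length trend, a replicate block and each library left out, and for the *Vangl1/2* lungs the length trend and control replicate 2 together, also chosen after seeing the data. With 1 library left out, the Sox9-Cre log2 difference of *Timp3* lay between −0.53 and −0.36, its sign fixed by its choice. With all these settings, the log2 differences of the members kept their sign and side of the adjusted threshold, or moved by less than the spread between libraries, in all comparisons of the Dermo1-Cre (108) and Sox9-Cre (96, beside *Timp3*) experiments. In the *Vangl1/2* experiment 99 did so, 12 passed the threshold only without control replicate 2, and 6 changed sign. With the length trend removed, these were *Timp1* (0.058), *Mmp11* (0.062) and *Mmp15* (−0.050), and with control replicate 2 also left out they were 0.10, 0.16 and −0.041. The number of *Vangl1/2* genes past the adjusted threshold, 1 in the test as reported, was 1601 under that last setting, 0 with the replicate block, and 0 to 6183 with 1 library left out, where 6183 came without control replicate 2. The number of members with an unadjusted p under 0.05, 4 as reported (3 higher and 1 lower, beside 12% and 8.56% of all genes), was 2 with the replicate block (21%) and 0 to 8 with 1 library left out, where 8 came without control replicate 2, beside 50.6% of all genes. In the Dermo1-Cre experiment the number of genes was 2 as reported, 16 with the replicate block, and 0 to 54 with 1 library left out (54 without mutant replicate 1). The number of members was 1 as reported, 0 with upper-quartile scaling (beside 10.2% of all genes), 1 with the length trend removed (9.25%), where it was *Mmp15* in place of *Mmp11*, and 0 to 4 with 1 library left out (2 without control replicate 1, *Timp3* and *Mmp11*, beside 9.94%, and 4 without mutant replicate 2, beside 13.3%, namely *Timp2*, *Mmp11* and *Mmp15* lower and *Adam17* higher). In the Sox9-Cre experiment the number of genes was 0 as reported and 0 to 13 with 1 library left out (13 without mutant replicate 1). The causes of these moves were not tested. Same-numbered control and mutant libraries deviated together by r = 0.303, 0.049 and 0.013 in the *Vangl1/2*, 0.073, −0.073 and −0.223 in the Dermo1-Cre and 0.053, 0.132 and −0.120 in the Sox9-Cre experiment, so the numbers were not taken to pair the samples, and the blocked fit changed no call on a member at the adjusted threshold. The planned count tests with edgeR and DESeq2 and the planned TMM scaling were left out, since the deposited values are normalized, and no test was run on the reads that their steps give back.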
